A study of Gossypium hirsutum with 7 samples.

Results

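The comparison set ovules of cotton (Gossypium hirsutum) over-expressing the homeodomain gene GhHD-1 against wild-type ovules, on the 3 arrays titled over-expression and the 2 titled wild type, 5 of the 7 arrays of the series. Every array was hybridised with RNA of whole ovules collected on the day the flower opened (0 days post anthesis). The design text gives the purpose as finding genes that GhHD-1 may regulate while fibres initiate. Arrays within a group are labelled as biological replicates, and the labels name no cultivar, promoter or transgenic line, so whether the over-expression arrays come from 1 line or several is not known here, and p-values measure the spread between these samples. The remaining 2 arrays, of ovules with GhHD-1 silenced, entered the fit only through the estimate of spread, and their values are given where they stand beside a result.

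A cotton fibre is a single cell of the outer ovule epidermis that balloons out around flowering, elongates by loosening its primary wall and later fills with cellulose. Homeodomain leucine zipper factors of the class to which GhHD-1 belongs are transcription factors of the plant epidermis, known in Arabidopsis for roles in trichomes and cuticle. MYB, bHLH and WD-repeat proteins act with such factors in Arabidopsis trichome patterning. In a whole ovule the fibre cells are a small part of the RNA, so fewer cells of a type and less RNA per cell cannot be told apart.

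Values are log2 intensities per probe set (a group of short probes read as 1 value), so a difference of 1 is a doubling. Of 23977 cotton probe sets, 697 had 1 annotated gene and 324, from 246 genes, had a gene name. GhHD-1 itself could not be located among the annotated probe sets, and its expression is not reported here. Array medians lay between 7.61 and 7.72, and values near 4 stand close to the floor. Of the 16 fibre probe sets, 4 averaged below 5 and the others above, among them E6 at 10.09 and 10.70 on the wild-type arrays. Of the 8 probe sets of seed storage and late embryogenesis genes, typical of a maturing embryo, 5 averaged below 5, while Lea5-D read 10.57 and 12.09, LEGB 9.48 and 9.51 and Lea14-A 8.07 and 7.89 in wild type. RCA1, the Rubisco activase of green tissue, read 4.73 and 5.26 in wild type and 5.61, 5.27 and 5.55 in over-expression.

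The wild-type arrays differed from each other more than from some transgenic arrays. Their values were 0.234 apart at the median probe set and at least 1 apart at 880. Wild-type replicate 2 lay 0.185, 0.208 and 0.160 from over-expression replicates 1, 2 and 3 by the same measure, and replicate 1 lay 0.242, 0.227 and 0.202 from them. Over-expression arrays lay 0.140 to 0.184 from each other. The silenced arrays, which also entered the estimate of spread, were the closest pair, at 0.116. The reporter control RPTR-Ghi-U57609-2_s_at gave 5.09 for wild-type replicate 1 and 11.88 for replicate 2, against 5.91, 8.59 and 8.81 for the over-expression arrays, so the array labelled wild-type replicate 2 was above every transgenic one. The spike-in control AFFX-DapX-M_at, RNA added during labelling, read 10.61 on that array and 6.59 to 6.93 on the other 4 of the comparison. The part of these differences in the results below was not tested, and the wild-type arrays are therefore shown singly.

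Against wild-type replicate 1, the mean of the over-expression arrays was at least 2-fold higher at 221 probe sets and at least 2-fold lower at 528. Against wild-type replicate 2 the numbers were 61 and 87. Only 9 probe sets were 2-fold higher and 14 were 2-fold lower against each of them, and the single one with a name was a probe set of NAC2, which was lower. At 9122 probe sets, 38.0% of those tested, the over-expression mean lay between the wild-type values, so that the direction depended on which wild-type array was taken.

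**Figure D1:**
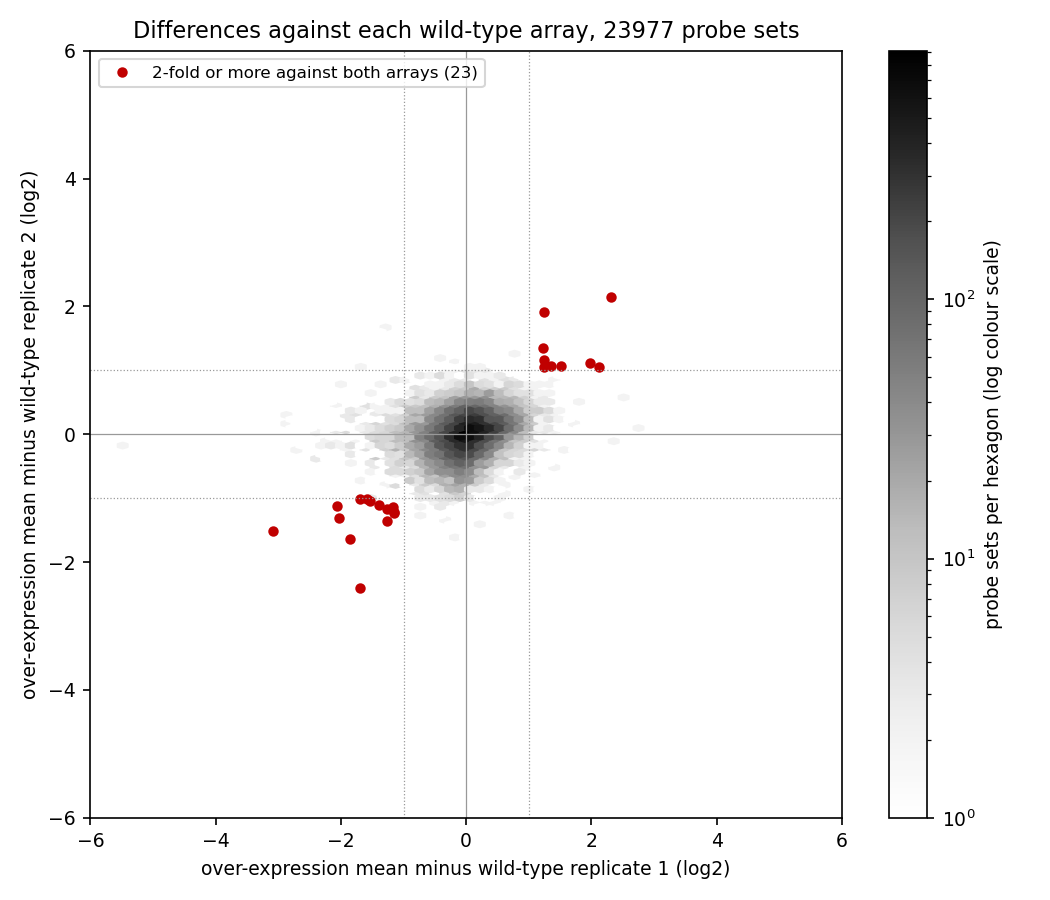
Each hexagon holds probe sets placed by the mean of the 3 over-expression arrays minus wild-type replicate 1 (x axis, log2) and minus wild-type replicate 2 (y axis, log2), with darker grey for more probe sets. The cloud is wider along the axis of replicate 1, and the 23 red points are the probe sets at least 2-fold apart, in 1 direction, from both.

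Limma called 1 of 23977 probe sets, 0.00417%, at an adjusted p under 0.05, and 2505 (10.4%) had an unadjusted p under 0.05, 1452 of them higher and 1053 lower. Without wild-type replicate 2 the number called was 475, and without any other single array it was 0. The called probe set, GraAffx.16508.1.A1_x_at, has no gene name. It read 5.78 and 5.93 in wild type and 7.90, 8.19 and 8.17 in over-expression, with no overlap and a gap of 1.97 between the nearest arrays. It rose 4.7-fold (log2 difference 2.23, SE 0.15, adjusted p = 0.0397). In silenced ovules it read 7.82 and 7.48, nearer to over-expression than to wild type. The size of the rise stayed between 2.16 and 2.32 when any 1 array was left out, but the call was lost in every such fit except the one without wild-type replicate 2. It was also lost with only the 5 arrays compared (adjusted p = 0.189), cyclic loess (0.0526), array weights (0.204) and the replicate block (0.685).

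All 3 over-expression arrays lay above both wild-type arrays at 3468 probe sets (14.5%) and below both at 2351 (9.81%), together 24.3% of those tested. The share of these that was higher was 59.6%, and it was 79.8% after centring each array on its median and 51.1% after cyclic loess, so the balance of directions depended on scaling. The nearest arrays of the groups were at least 1 log2 unit apart at 2 probe sets, GraAffx.16508.1.A1_x_at and, in the other direction, Ghi.1612.1.A1_at. The latter read 8.42 and 6.85 in wild type and 5.61, 5.56 and 4.83 in over-expression (log2 difference -2.30, SE 0.45, adjusted p = 0.393), beside 8.11 and 7.79 in silenced ovules, and it was chosen after its values were seen. With 2 arrays against 3, an exact permutation test of a single probe set cannot give a two-sided p below 0.2. The same 0.2 is the share of probe sets expected to lie apart, in either direction, if the array labels were interchangeable. The counts of probe sets apart therefore carry no test. Among the 324 named probe sets, 40 lay above and 25 below without overlap, 20.1% in all, and 0 were called (16 higher and 14 lower at an unadjusted p under 0.05).

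Among probe sets without a name, the next highest moderated t belonged to Ghi.6500.1.S1_at, at 5.55 and 5.83 in wild type and 6.86, 7.02 and 6.83 in over-expression (log2 difference 1.21, SE 0.14, adjusted p = 0.393). The lowest were Ghi.57.1.A1_at, at 6.83 and 6.91 against 6.12, 6.12 and 5.96 (log2 difference -0.80, SE 0.11, adjusted p = 0.393), and Ghi.8577.1.S1_s_at, whose groups were apart by 0.74 at the nearest arrays, with a mean of 9.04 ± 0.03 (SD, n = 3) against 9.96 ± 0.23 (SD, n = 2) (log2 difference -0.92, SE 0.13, adjusted p = 0.393). None of these 3 passed. Their groups did not overlap, which was so at 24.3% of all probe sets and is favoured by ranking on t. In silenced ovules Ghi.57.1.A1_at and Ghi.8577.1.S1_s_at were low as well, at 5.83 and 5.89 and at 8.72 and 8.82.

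The highest moderated t among named probe sets was that of ERF7, a transcription factor of the ethylene response family. It read 6.01 and 6.52 in wild type and 7.21, 7.13 and 7.69 in over-expression. All 3 over-expression arrays were higher, by 1.34 on average against wild-type replicate 1 and 0.83 against replicate 2 (log2 difference 1.08, SE 0.22, adjusted p = 0.397). In silenced ovules it read 6.91 and 6.93, also above both wild-type arrays. No named gene in this paragraph or the ones that follow passed the test over all probe sets, and their values are given as such.

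KCS38, a ketoacyl-CoA synthase of the kind that elongates very-long-chain fatty acids for wax and cuticle, read 8.03 and 8.14 in wild type and 8.79, 8.59 and 9.02 in over-expression at its probe set with the highest t. The wild-type arrays lay close together there and all over-expression arrays were higher (log2 difference 0.72, SE 0.15, adjusted p = 0.407). Its 4 probe sets did not move alike, with differences from -0.12 to 0.72, and the one just named ends in _x_at, the mark of probes that may read related transcripts. CPR2, a cytochrome P450 reductase that passes electrons to P450 enzymes, read 10.73 and 10.51 against 11.37, 11.07 and 11.20, again without overlap (log2 difference 0.59, SE 0.13, adjusted p = 0.407). Its silenced values, 10.51 and 10.56, lay with wild type.

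The bHLH factor bHLH110D, also listed as GHDEL61, read 7.99 and 8.37 in wild type and 9.16, 8.85 and 8.75 in over-expression. Its over-expression arrays were all higher, by 0.92 and 0.55 against wild-type replicates 1 and 2 (log2 difference 0.74, SE 0.18, adjusted p = 0.407). Of the 12 probe sets of MYB, bHLH and WD-repeat regulators it was the only one whose groups did not overlap in either direction (8.33%, beside 24.3% of all probe sets). The others included GHTTG1, a WD-repeat protein, at a difference of -0.02 (adjusted p = 0.937), MYB5 at 0.34 (0.549) and GHMYB38 at -0.50 to -0.24 over its probe sets. The list's median was 0.023, beside 0.019 over all probe sets.

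Of the remaining 11 probe sets with the highest t, 10 had groups without overlap, many by small gaps. Ranking by t on these same arrays favours groups without overlap, which 24.3% of all probe sets had, so the count adds no support. The gibberellin receptor GID1-4 read 6.95 and 6.77 against 7.08, 7.44 and 7.22 (log2 difference 0.39, SE 0.14, adjusted p = 0.455). It lay higher still in silenced ovules, at 7.59 and 7.48. The catalase gene CAT2, whose enzyme breaks down hydrogen peroxide, read 6.35 and 6.77 against 6.98, 7.81 and 7.06 (log2 difference 0.73, SE 0.27, adjusted p = 0.456), with over-expression replicate 2 far above the other two. CPA-FAS-3, a cyclopropane fatty acid synthase, read 6.21 and 6.73 against 7.26, 6.71 and 7.30, where over-expression replicate 2 fell inside the wild-type range (log2 difference 0.62, SE 0.23, adjusted p = 0.455). The legumin gene LEGB, a seed storage protein, had the tightest wild-type pair of these, at 9.48 and 9.51 against 9.75, 9.83 and 9.73 (log2 difference 0.27, SE 0.10, adjusted p = 0.457). MPK14, a MAP kinase, differed by 0.34 (SE 0.14), the AP2 factor RAV1 by 0.37 (SE 0.15), the NAC factor NAC10 by 0.52 (SE 0.21) and PAP10 by 0.48 (SE 0.19). The beta-tubulin BTub1 (0.55), RCA1 (0.48) and FLA6 (0.44) were dim, with wild-type means of 3.57, 4.99 and 5.18. Adjusted p-values of these 11 lay between 0.452 and 0.476. In silenced ovules CPA-FAS-3, CAT2, LEGB, RAV1, BTub1, RCA1 and FLA6 also lay above both wild-type arrays, as GID1-4 did. MPK14 and NAC10 were mixed there, and PAP10 lay below both, at 6.84 and 6.64.

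**Figure D2:**
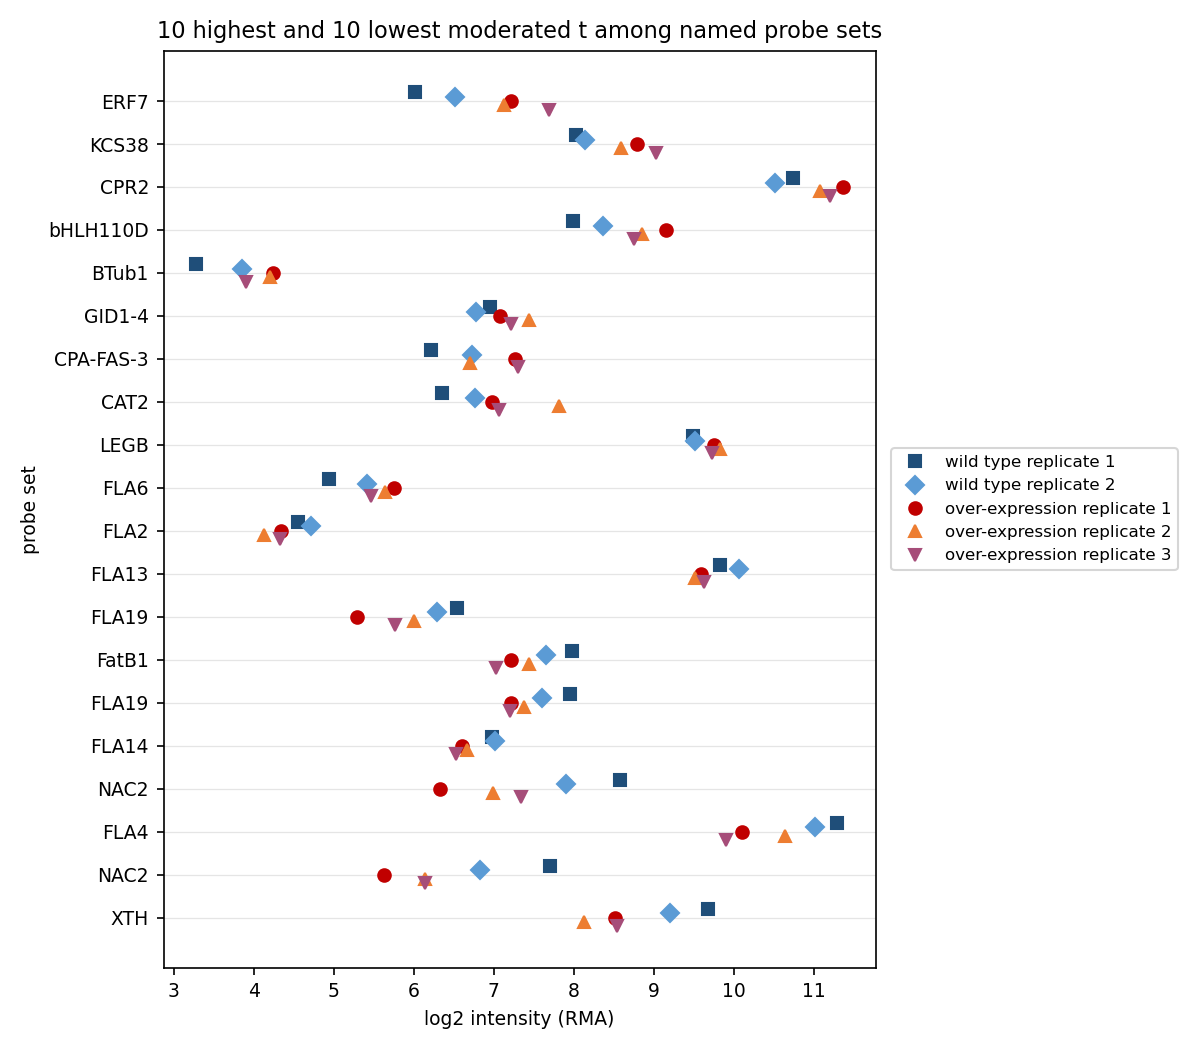
Log2 intensity (x axis) of the 10 named probe sets with the highest and the 10 with the lowest moderated t (rows, from highest at the top to lowest at the bottom), with 1 symbol per array and blue for wild type. The groups do not overlap in any row except CPA-FAS-3, where over-expression replicate 2 (6.71) lies just under wild-type replicate 2 (6.73). The rows were picked by t on these same arrays, which favours groups without overlap.

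At the other end of the ranking stood XTH, a xyloglucan endotransglucosylase/hydrolase that cuts and rejoins wall xyloglucan. Its dimmer probe set read 9.67 and 9.20 in wild type and 8.52, 8.12 and 8.54 in over-expression, with every over-expression array lower (log2 difference -1.04, SE 0.19, adjusted p = 0.393). In silenced ovules this probe set was low as well, at 8.44 and 8.43, so the lower values were not particular to over-expression. A brighter probe set of the gene read 12.48 and 11.88 against 11.70, 11.52 and 11.78, lower too but by 0.092 at the nearest arrays (log2 difference -0.51, SE 0.21). Its silenced values were 12.01 and 11.65. A related gene, XTH1, had overlapping groups, at 5.94 and 6.72 against 5.98, 5.05 and 5.75.

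The NAC factor NAC2 was low in over-expression at both of its probe sets. The first read 7.70 and 6.82 in wild type and 5.63, 6.14 and 6.15 in over-expression, and the second 8.58 and 7.90 and 6.33, 6.99 and 7.33. In neither did the groups overlap, and wild-type replicate 1 was the highest array of both (log2 difference -1.29, SE 0.28, adjusted p = 0.407 and log2 difference -1.35, SE 0.32, adjusted p = 0.407). The silenced values, 7.53 and 7.24 at the first and 8.34 and 8.50 at the second, lay among wild type. Of the 12 NAC probe sets, NAC2 included, 9 had positive differences, and the list's median was 0.14 and its mean -0.06. Without over-expression replicate 2 the median was -0.013.

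Genes of fasciclin-like arabinogalactan proteins (FLA), which are glycoproteins found at the plasma membrane and in the wall, held 7 of the 15 lowest values of t, from FLA2, FLA4, FLA13, FLA14 and FLA19. FLA4, the brightest of these, read 11.29 and 11.02 in wild type and 10.10, 10.63 and 9.91 in over-expression (log2 difference -0.94, SE 0.22, adjusted p = 0.407), beside 11.82 and 11.77 in silenced ovules, which lay above wild type. FLA14 read 6.98 and 7.01 against 6.60, 6.67 and 6.53, with close replicates in both groups (log2 difference -0.40, SE 0.10, adjusted p = 0.407). All 3 probe sets of FLA19 were apart, with differences of -0.73, -0.52 and -0.47, and FLA13 (-0.37) and FLA2 (-0.37, wild-type mean 4.64) had smaller ones. The silenced arrays did not take 1 direction over these probe sets. All 3 of FLA19 lay above both wild-type arrays there, as FLA4 did. Those of FLA14 (6.66 and 6.69), FLA13 (9.54 and 9.63) and FLA2 (4.31 and 4.33) lay below both, as in over-expression.

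Over the 19 fasciclin-like probe sets of 12 genes, 8, from 6 genes, lay below both wild-type arrays without overlap and 1 above, against the 9.81% and 14.5% of all probe sets. The list was chosen with this known. Its median was -0.25 against both wild-type arrays, -0.22 against replicate 1 and -0.28 against replicate 2, and it had 0 called members. Family members went both ways, since FLA6 had differences of 0.43 to 0.44 over its 2 probe sets and the brightest probe set of FLA14 differed by -0.019. Related family members may be read by the same probes.

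Other low values of t were those of FatB1, an acyl carrier protein thioesterase that releases palmitate, at 7.98 and 7.65 against 7.21, 7.44 and 7.03 (log2 difference -0.59, SE 0.16, adjusted p = 0.415). The silenced arrays were lower again, at 7.09 and 6.93, and a brighter FatB1 probe set differed by only -0.036. The peroxidase gene pod7 read 8.98 and 8.80 against 8.43, 8.17 and 8.75 (log2 difference -0.44, SE 0.18, adjusted p = 0.472), and GLU read 10.19 and 10.70 against 10.15, 9.48 and 9.93 (log2 difference -0.59, SE 0.24, adjusted p = 0.466), both apart by less than 0.1 at the nearest arrays.

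Fibre genes varied inside both groups. E6, a protein abundant in young fibres, read 10.09 and 10.70 in wild type and 10.62, 9.73 and 10.62 in over-expression (log2 difference -0.07, SE 0.31, adjusted p = 0.937). Wild-type replicate 1 and over-expression replicate 2 were the low arrays of their groups. The fibre expansin EXPA1, which loosens walls, read 8.34 and 9.53 against 9.42, 8.58 and 9.37 (adjusted p = 0.858), and myb109, a MYB factor of fibre initials and elongating fibres, read 5.61 and 6.86 against 7.07, 5.60 and 7.18 (adjusted p = 0.791). The same 2 arrays were again the lowest for both genes.

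HOX3, a homeodomain leucine zipper factor that promotes fibre elongation, read 10.16 and 10.60 in wild type and 10.90, 10.25 and 10.90 in over-expression (log2 difference 0.30, SE 0.23, adjusted p = 0.616), with the same order. The other annotated homeobox gene, HB4, read 9.52 and 9.30 against 8.94, 9.68 and 9.12 (log2 difference -0.16, SE 0.22, adjusted p = 0.781), and here over-expression replicate 2 was highest. In silenced ovules HB4 stood above all 5 of these arrays, at 10.42 and 10.65. Of the 16 fibre probe sets, wild-type replicate 1 was below replicate 2 at 14 (87.5%, beside 51.2% of all probe sets), and over-expression replicate 2 was the lowest of its group at 11 (68.8%, beside 42.7%). The groups were apart at 0 of the 16 fibre probe sets, beside 24.3% of all probe sets, and 0 were called. The median of 0.13 became 0.35 against wild-type replicate 1 and -0.027 against replicate 2, and it was -0.011 without over-expression replicate 3.

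Several stress genes varied inside the groups, most with the opposite order. MPK3, a MAP kinase of wound and defence signalling, read 10.84 and 7.95 in wild type and 7.38, 9.76 and 7.95 in over-expression at its brightest probe set (log2 difference -1.03, SE 0.93, adjusted p = 0.666). The high arrays were wild-type replicate 1 and over-expression replicate 2, and the 6 MPK3 probe sets had differences from -1.03 to -0.02. At a dimmer MPK3 probe set wild-type replicate 1 was instead the lower, at 5.30 beside 5.58. The WRKY factor WRKY24 read 8.29 and 6.16 against 4.46, 8.72 and 6.22 (log2 difference -0.76, SE 1.17, adjusted p = 0.81), a range of over 4 log2 units inside the over-expression group. An ACC oxidase gene listed as ACO1, of the last step of ethylene synthesis, read 7.94 and 8.84 against 7.90, 11.84 and 8.51 (log2 difference 1.03, SE 1.06, adjusted p = 0.71), so only over-expression replicate 2 stood above wild type. Its wild-type arrays had the order of the fibre genes, with replicate 1 lower. NAC5/NAC8, a NAC factor with both names in the annotation, read 7.41 and 6.97 against 6.41, 8.87 and 6.48, with the same high arrays as MPK3. Among hormone genes the wild-type order was not of 1 kind, since wild-type replicate 1 was below replicate 2 at 6 of 9 ethylene and 3 of 7 auxin probe sets.

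Over-expression replicate 2 was the highest of its group at all 7 auxin probe sets, all 8 of AP2 factors, all 3 of WRKY factors and 7 of 9 of the ethylene list, beside 31% of all probe sets. Its median excess over the mean of the other two was 0.77 for auxin, 0.44 for AP2, 0.63 for WRKY and 0.55 for ethylene genes, and -0.35 for fibre genes. At 223 probe sets the arrays were at least 2-fold apart inside both groups, and at 118 of these wild-type replicate 1 and over-expression replicate 2 were the high arrays. Wild-type replicate 1 was high with over-expression replicate 3 at 43 and with replicate 1 at 3. Wild-type replicate 2 was high with over-expression replicates 2, 3 and 1 at 28, 19 and 12. Both arrays of the largest count were thus often high without the other, and a link between them was not tested. Glp1, a germin-like protein gene, went the other way, at 7.76 and 9.05 in wild type and 9.80, 8.11 and 10.22 in over-expression. CBP2, with the widest wild-type pair of any named probe set, read 8.93 and 5.98 against 7.10, 6.63 and 9.14 and followed neither order, with over-expression replicate 3 highest. These orders were noticed in the data, and their cause was not tested.

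**Figure D3:**
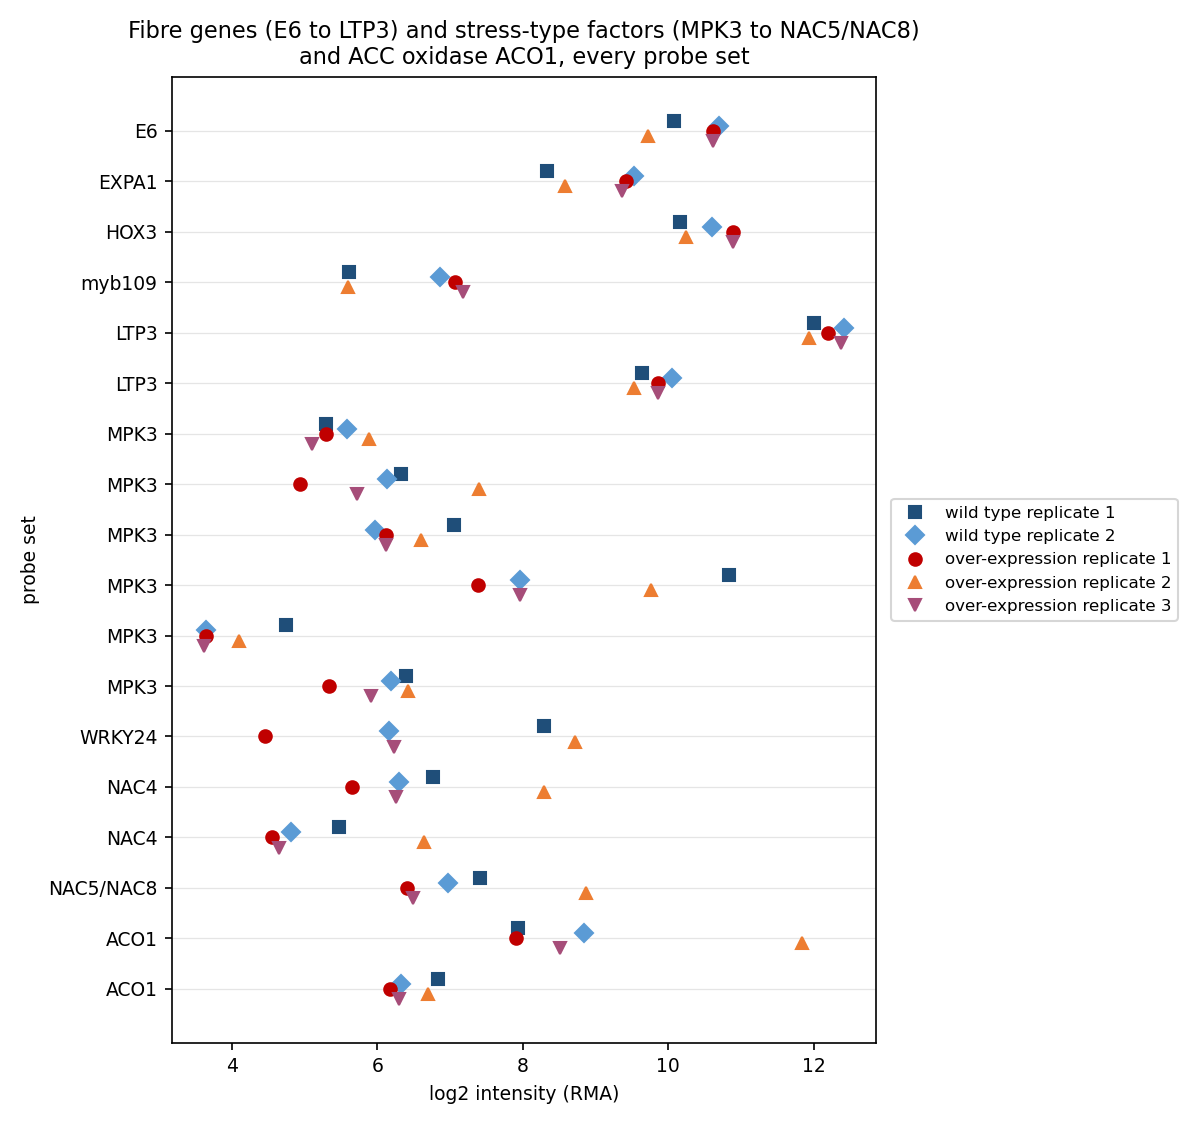
Log2 intensity (x axis) of every probe set of 5 fibre genes (E6 to LTP3), of MPK3, WRKY24, NAC4 and NAC5/NAC8, and of the genes listed as ACO1 (rows), with 1 symbol per array. Wild-type replicate 1 (dark square) and over-expression replicate 2 (orange upright triangle) sit at the low end for these 5 fibre genes. For the others they sit mostly at the high end, across the group labels. Other listed fibre genes did not all follow, since over-expression replicate 2 was the highest of its group at 3 of the 16 fibre probe sets. One of these, the brighter of SusA1, read 8.32 and 7.94 in wild type and 7.32, 8.85 and 7.62 in over-expression.

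Among cell wall genes, 4 of 24 probe sets, from 3 genes, lay below both wild-type arrays (16.7%, beside 9.81% of all probe sets) and 0 above (beside 14.5%). XTH was described above. EXPA4 and rgp1, of a family that supplies arabinose units to the wall, each had 1 such probe set (-0.28 and -0.32), while their other probe sets overlapped. That of EXPA4 was apart by only 0.006 at the nearest arrays, and that of rgp1 stood near the floor, with a wild-type mean of 4.42. CelA1, a cellulose synthase, had positive differences of 0.42 to 0.43 over 2 probe sets with overlapping groups. The list's median was -0.12, and 0.048 with 1 probe set per gene. Without over-expression replicate 2, the lowest of its group at 54.2% of the list, it was 0.0057.

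Ethylene genes had ERF7 as their only member of 9 without overlap (11.1%, beside 24.3% of all probe sets), and ERF8 (-0.27, adjusted p = 0.569) and ERF9 (-0.38 to -0.12) had negative values. Their median was -0.16 and their mean 0.052. For the auxin list, 7 probe sets of 4 genes with 6 positive, the median was 0.36, but 0.066 without over-expression replicate 2. Aux2 read 6.89 and 7.84 in wild type and 7.84, 8.07 and 8.07 in over-expression (log2 difference 0.63, SE 0.26, adjusted p = 0.477), so only wild-type replicate 1 was low. Aux6 (0.36) and Aux4 (0.05 to 0.51 over 4 probe sets) overlapped too, and 0 of the list had groups apart. Against the wild-type arrays singly the auxin median was 0.11 and 0.15.

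Over all probe sets, 14.5% lay above and 9.81% below both wild-type arrays. Beside these shares, gibberellin and brassinosteroid genes gave 2 of 7 probe sets above wild type without overlap (28.6%), GID1-4 and the sterol methyltransferase SMT1 (0.12). The growth repressor of the DELLA family GAI2 at 0.28 overlapped. GID1-2, of the same receptor family as GID1-4, went the other way with overlapping groups (log2 difference -0.39, SE 0.42, adjusted p = 0.725). It read 9.60 and 8.86 in wild type and 8.18, 9.65 and 8.70 in over-expression. Reactive oxygen genes were even, with 12 of 24 positive, 3 (12.5%) apart above (CAT2, pod5 and pod10) and 2 apart below (pod7 and CSD2a, a copper/zinc superoxide dismutase). The peroxidase POX5 differed by 0.48 with overlapping groups. Calcium and kinase genes had 3 of 21 (14.3%) apart above (MPK14, SOS2 and MAPKKK) and 2 apart below (grlk5 and the annexin AnnGh1), and the calcineurin B-like sensor CBL1 at -0.43 to -0.32 overlapped.

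Lipid and cuticle genes had 4 of 16 probe sets above wild type without overlap (25%, beside 14.5% of all probe sets), from KCS38 (2 probe sets), KCS12 and KAS2-1, and 1, of FatB1, below (6.25%, beside 9.81%). KAS2-1, a ketoacyl-ACP synthase, and KCS12, near the floor, differed by no more than 0.21. The list's median was 0.034. Phenylpropanoid and flavonoid genes had 0 of 8 apart, beside 24.3% of all probe sets, and a median of -0.026, which was 0.26 against wild-type replicate 1 and -0.094 against replicate 2, and 0.037 and 0.12 without over-expression replicates 1 and 2. Their chalcone synthase CHS6 read 4.60 and 5.61 in wild type and 5.28, 5.71 and 5.90 in over-expression, so wild-type replicate 1 was the lowest of the 5 arrays, and CHS2 had differences of -0.24 to 0.25 over 4 probe sets.

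The counts that follow stand beside the 14.5% of all probe sets that lay above both wild-type arrays. WRKY15 had groups apart at 1 of 2 probe sets, the dimmer one, at 5.62 and 5.59 against 5.74, 5.96 and 5.75 (log2 difference 0.21, SE 0.14, adjusted p = 0.573). Of the AP2 factors 1 of 8 was apart, a probe set of RAV1, whose 3 probe sets ranged from -0.01 to 0.37, and DBP3b differed by 0.10. MADS factors of floral organ identity had 2 of 5 apart above, MADS10 (0.14) and MADS-2 (0.07), with MADS-9 at 0.26 and SEPALLATA3 at -0.17. Cytoskeleton genes had 2 of 17 apart above, BTub1 and the kinesin KCH1 (0.26, wild-type mean 4.46), and the alpha-tubulin TUA10 ranged from -0.09 to 0.35. Translation genes, a broadly expressed control, had a median of 0.016 (-0.029 without over-expression replicate 1), with 2 of 8 apart above, the elongation factor genes EF1A7 (0.18) and EF1A1 (0.15), and RPS4 at -0.19.

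Seed storage and late embryogenesis genes had 3 of 8 apart above (37.5%, beside 14.5% of all probe sets) and a median of 0.16. Of these, LEGB is described above and Mat5-D (0.17) and MatP7 stood below 5. Of the bright members LEGB was positive, and Lea5-D and Lea14-A had differences of -0.31 and -0.35. Terpenoid and defence genes had 0 of 3 apart, beside 24.3% of all probe sets. HrBP1, a harpin-binding protein gene, read 11.03 and 9.98 in wild type and 10.13, 9.95 and 9.98 in over-expression, where only wild-type replicate 1 stood apart. The chitinase Chia7 differed by -0.14 and the cadinene synthase cdn1 was at the floor. Lists added last gave medians of 0.034 for nucleotide sugar enzymes, with GAE2 at 0.22 and RHM3 at -0.03, 0.048 for small GTPases, with Rac9 at 0.20, Rac13 at 0.064 and Rab7 at -0.11, and 0.17 for vacuolar and ion transport, with SOS2 at 0.23, VATE at -0.25 to 0.21 and the cyclic nucleotide-gated channel CNGC2 at -0.39. The small GTPase median was -0.00071 without over-expression replicate 1, and the vacuolar and ion transport median was -0.049 without replicate 2.

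**Figure D4:**
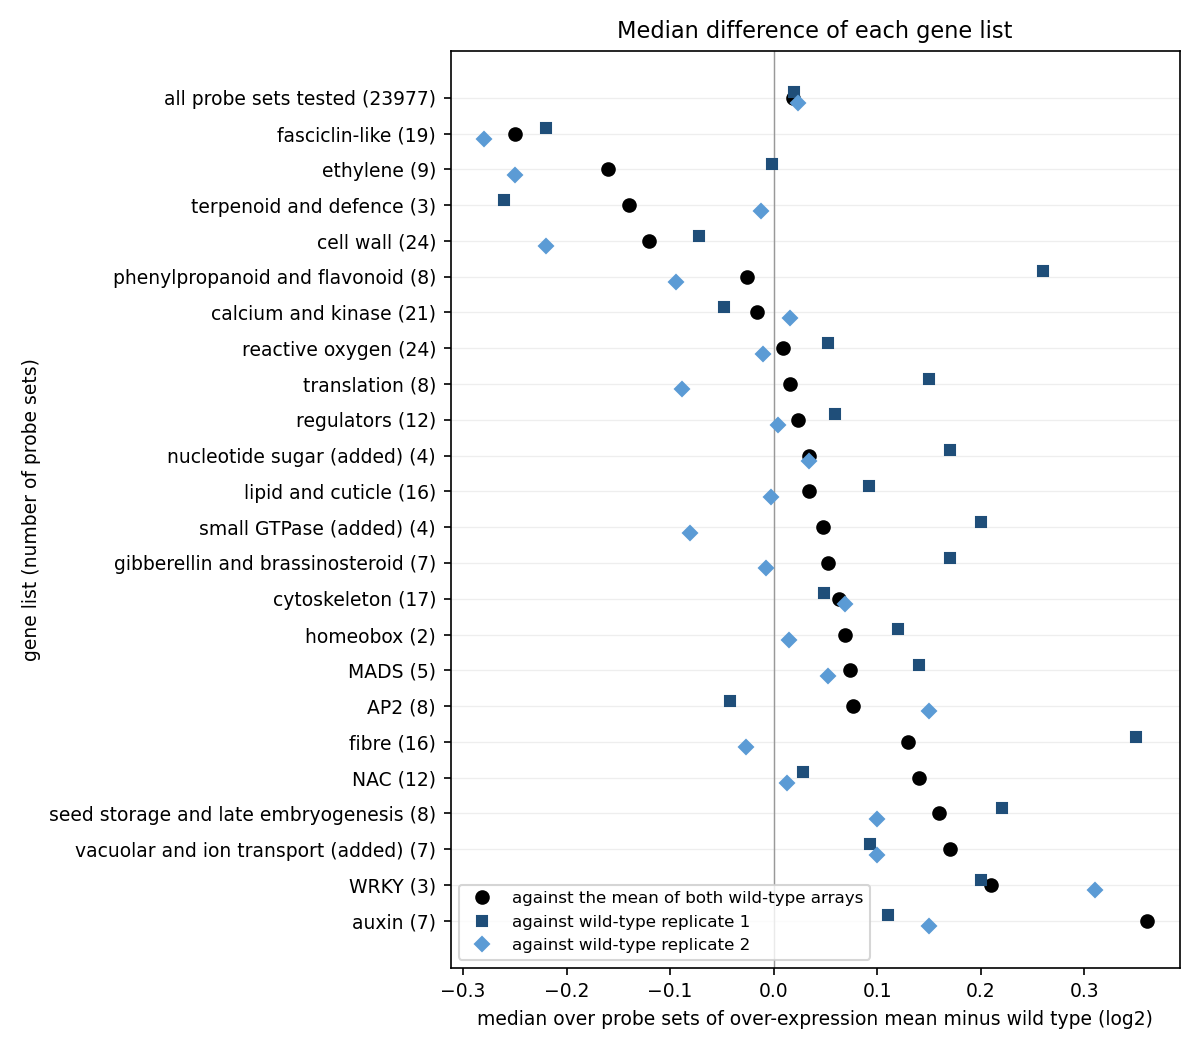
Median over the probe sets of each gene list (rows, with the number of probe sets) of the over-expression mean minus wild type (x axis, log2), against the mean of both wild-type arrays (black) and against each of them (blue). The fasciclin-like list lies below 0 against either array. So do the cell wall (-0.072 and -0.22 against replicates 1 and 2), ethylene (-0.0015 and -0.25) and terpenoid and defence (-0.26 and -0.012) lists. The phenylpropanoid, fibre and translation lists are among those that change sign with the wild-type array taken.

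Where a gene had more than 1 probe set, these often disagreed. Of 52 such named genes, 30 had differences from the wild-type mean of 1 sign at all probe sets, and 22 had both signs. XTH, NAC2, FLA19, FLA13, CBL1 and MPK3 were among the former and KCS38, EXPA4, EXPA3D and CHS2 among the latter. A shared sign did not always hold against each wild-type array. The brightest MPK3 probe set differed by -2.48 against replicate 1 and 0.41 against replicate 2, and FLA13 and CBL1 each had a probe set that changed sign in this way.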

How the data were processed

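The authors deposited RMA-type log2 intensities for a 1-colour Affymetrix cotton array, 1 value per probe set and array, from 2.27 to 14.55. RMA, limma and R 2.7.1 are named, without roles, per the submitters' processing notes. RMA corrects background and equalises array distributions by quantiles, which removes global shifts and compresses low signals. Of 24132 probe sets, 103 AFFX and 52 RPTR controls were left out. Names came from the platform annotation through RefSeq synonyms (assembly Gossypium_hirsutum_v2.1); all 697 single-gene probe sets matched, 46 had several genes and 23234 none listed. No coordinates are given because no build is named. Names ending in _s_at (9270) or _x_at (1556) mark probes that may read several transcripts.

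Limma 3.58.1 in R 4.3.3 was fitted to all 7 arrays with 1 mean per group, with default eBayes (4 residual and 3.01 prior degrees of freedom), Benjamini-Hochberg adjustment over 23977 probe sets and a threshold of 0.05; p-values are two-sided. The script was tested on simulated data. Named genes are called probe sets, the 15 highest and 15 lowest moderated t among named probe sets, the 3 smallest p-values in every list, the 5 genes with the widest wild-type pair, homeobox genes and 4 unnamed probe sets; others were chosen after their values were seen. The lists hold genes by symbol; ACS, ACS1 and ARF1 were left out because their symbols have several meanings. The comparison and lists were chosen with earlier results of these data known, so lists carry no test. The number of arrays limits the precision.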

Additional observations from a re-analysis of the deposited data

Results flagged for a closer look

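Among the 155 control probe sets left out of the tests, the reporter RPTR-Ghi-A06498-1_at was far above wild type in silenced ovules. It read 9.99 and 10.15 there, 4.08 and 4.59 in wild type and 4.63, 4.66 and 4.39 in over-expression. The lowest silenced array was 5.41 log2 units above the highest wild-type array, and it was the only control at least 1 unit above both in either transgenic group, a limit set after the values were seen. All 3 over-expression arrays were above both wild-type arrays at 15 controls, by at most 0.29.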

How the results depend on the processing

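The count of 1 call was 0 with only the 5 arrays compared, the replicate block, cyclic loess, array weights and probe sets not ending in _s_at or _x_at (which drops the called one), and 1 with an intensity trend, a robust prior, median centring, a mean of at least 5 and a threshold of 0.1. At an unadjusted p under 0.05 the first 5 gave 1765, 1682, 2532, 1551 and 1383 probe sets. With 1 array left out it ranged from 0 to 475, the latter (168 higher, 307 lower) without wild-type replicate 2, where the single wild-type array left is given the spread of the other arrays; of the named genes chosen by rule, XTH, NAC2 (1 of 2 probe sets), Aux2 and HrBP1 passed there. Leaving out a silenced array equals the fit of 5 arrays, since the lone one adds no spread. Probe sets apart numbered 5918 higher and 1497 lower with median centring, 2201 and 956 without _s_at and _x_at (fewer tested), and 4246 to 8354 higher and 3398 to 6727 lower with 1 of the 5 arrays left out, by construction more; settings of the fit do not enter these counts.

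Replicate numbers are shared by the groups but nothing says that they mark a day or plant. Deviations of same-numbered arrays from their group means correlated at r = -0.305 and -0.217 across probe sets. With 2 wild-type arrays these deviations mirror each other, so the differently numbered pairs gave 0.305 and 0.217 by construction. The values cannot settle whether arrays were paired, and the replicate block (0 calls) is only an alternative. Of 85 probe sets of the naming rule, 14 changed sign somewhere, all small or wide: with 1 array left out Aux4 from -0.0028 to 1.03, CBP2 from -1.30 to 1.65, CBP3 from -0.55 to 1.45, CHS2 from -0.62 to 0.14, GAE3 from -0.035 to 0.24, GST from -0.97 to 0.81, HrBP1 from -1.02 to 0.043, MPK3 from -2.48 to 0.41, RHM3 from -0.17 to 0.10, Rab7 from -0.17 to 0.0049, Rac13 from -0.04 to 0.17, SEPALLATA3 from -0.42 to 0.066, WRKY24 from -1.88 to 0.31, cdn1 from -0.023 to 0.024. Under the replicate block CBP2 gave -0.59 and cdn1 -0.023, under cyclic loess GAE3 -0.0017, Rac13 -0.0099 and cdn1 -0.11, with array weights GST 0.12 and with median centring RHM3 0.026. Of the list medians, 135 alternative values stayed within the spread over over-expression arrays and 26 moved beyond it. The causes were not tested. Signals near the floor limit what dim genes can show.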
